A study of Mus musculus with 4 samples.

Results

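The data concern 9 mouse genes for germline RNA-binding and translation regulators, Dazl, Nanos2, Nanos3, Dnd1, Pum2, Cpeb1, Ythdc2, Meioc and Tex14, in an RNA-seq table with 43998 entries. The entries were taken by gene symbol, which found 8 of the 9; Meioc was found under Gm1564, an older symbol that RefSeq lists for it. The libraries were 4 in number, from spermatogonia of C57BL/6 mice at postnatal day 4: 2 labelled control and 2 labelled germ cell RA signaling mutant, in which retinoic acid (RA) signalling is altered in germ cells. Cells of all 4 had been pulled from the testis on beads carrying an antibody to CD90.2 (THY1), a surface antigen used to enrich undifferentiated spermatogonia. The labels name neither the altered gene nor the promoter that drives the alteration, and do not tell if 1 animal or several gave the 2 libraries of a group. The table gives 1 RPKM value per gene and genotype (reads per length of transcript and per depth of the library), combined by the authors from both libraries. There was therefore no spread between replicates, no test was possible, and no SD or p-value is given.

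Germ cells control many of their messages after transcription, through proteins that bind the 3′ untranslated region (3′ UTR) and set how fast a message is translated, lengthened at its poly(A) tail or destroyed. In male germ cells NANOS proteins, with DND1 and Pumilio proteins, recruit the CCR4-NOT deadenylase to repress messages and hold spermatogonia undifferentiated. DAZL and CPEB1 act on translation and the poly(A) tail, while YTHDC2 with MEIOC removes mitotic messages as cells enter meiosis under retinoic acid and STRA8. TEX14 is of another kind: it holds open the intercellular bridges that join sister germ cells.

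All 9 genes had a higher value in the mutant than in the control, although Dazl, Nanos3, Pum2 and Ythdc2 were lower in the mutant once values were rescaled to other germ cell genes. Cpeb1 stood out with a mutant value 2.49 times the control value, followed by Dnd1 at 1.85 times, Nanos2 at 1.59, Tex14 at 1.56 and Meioc at 1.54. The ratio was 1.36 for Nanos3, 1.29 for Dazl, 1.11 for Pum2 and 1.09 for Ythdc2. Differences are given below as the log2 of mutant over control after 1 RPKM was added to each, which makes those of low genes look smaller, and a gene is called at least 2-fold higher or lower on that scale. By this rule Cpeb1 was called higher, no member was called lower, and the median of the 9 was 0.54.

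The background for these counts is 16473 genes that reached 1 RPKM in at least 1 genotype, a minimum that all 9 members passed in both. Of these 4.4% were called higher and 4.35% lower, with a median difference of 0 and 50.4% of genes above 0. Among the 12607 of them annotated as protein-coding, as are all 9 members, 1.32% were called higher and 4.02% lower, the median was -0.06 and 44.4% lay above 0. A difference as high as that of Cpeb1 was reached by 0.555% of protein-coding genes, and one as high as that of Dnd1 by 2.21%. For Pum2 and Ythdc2 the shares were 31.9% and 34.4%, so that both lay inside the bulk of genes.

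**Figure D1:**
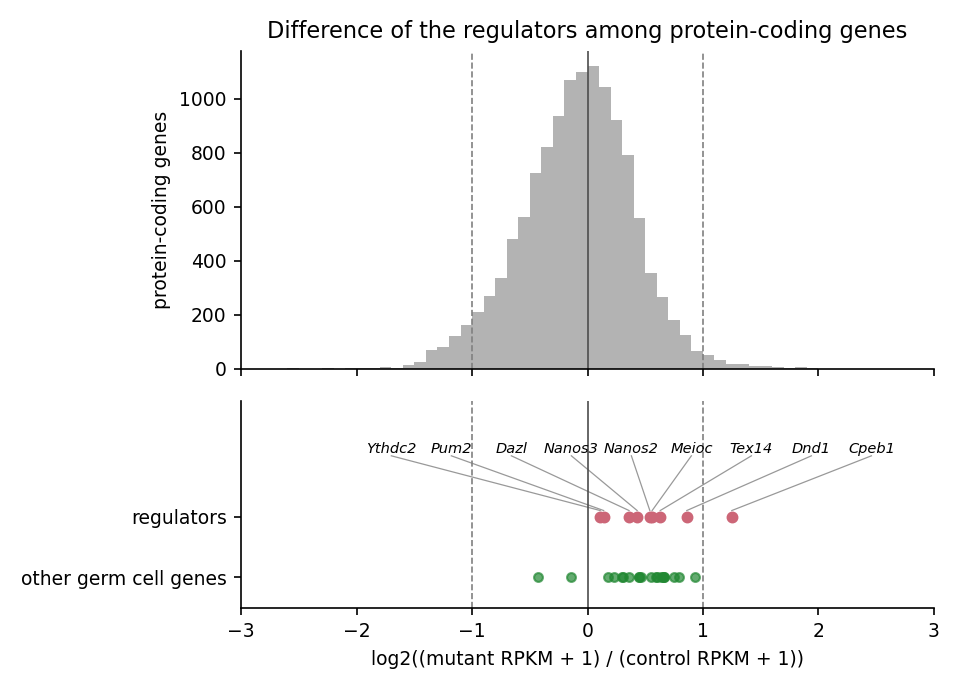
Upper panel, number of protein-coding genes (vertical axis) by log2 difference, mutant over control (horizontal axis, 6 genes beyond 3 in size not drawn); lower panel, the 9 regulators and 20 other germ cell genes on the same axis, dashed lines at the 2-fold rule. The regulators lie between 0.11 and 1.25 as reported, with Cpeb1 beyond the 2-fold line; 4 of the 9 lie below 0 after rescaling to the germ cell genes.

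If no further scaling entered them, the steps of the lowest values place the depth behind them near 56.0 M control and 57.3 M mutant reads. Nanos2, the lowest member, has a single exon in the table, so its values convert to about 234 control reads (exact 95% Poisson interval 205 to 266) and 377 mutant reads (340 to 417). The exact 95% interval of its mutant to control ratio was then 1.35 to 1.88. For the other members the longest coding transcript was taken, and the interval of the ratio was 2.37 to 2.62 for Cpeb1 and 1.05 to 1.13 for Ythdc2, the narrowest margin above 1. These intervals cover counting error only, and neither animals nor library preparation. They also hold only for the deposited scaling: rescaled to other germ cell genes, the log2 difference of Ythdc2 was -0.38.

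The cells in the beads' fraction were not all germ cells. Summed over 20 other germ cell genes such as Ddx4, Mael and the Tdrd genes, the control level was 991 RPKM and the mutant level 1380 RPKM, and no gene of that list was at 0. Macrophage markers summed to 4370 and 1560 RPKM over 11 genes, of which 10 were called lower. Leydig cell markers summed to 499 and 176 RPKM over 6 genes, of which 5 were called lower. Sertoli cell markers summed to 491 and 237 RPKM over 15 genes, of which 4 were called lower (from 1 to 11 over the scalings), and peritubular myoid markers to 87.5 and 37.5 RPKM over 5 genes. Endothelial markers stood at 25.0 and 24.2 RPKM over 7 genes. None of these marker genes was at 0 in either genotype, and their part in the differences of the 9 regulators was not tested. In such bulk RNA fewer cells of a type and less RNA per cell cannot be told apart.

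Set against the 20 other germ cell genes, the regulators did not form a block. Those 20 genes had a median difference of 0.50, from -0.43 to 0.93, with 18 above 0 and none called. Summed, they stood at 1.40 times the control level in the mutant, and the 9 regulators, from 444 to 608 RPKM, at 1.37 times. Cpeb1 exceeded all 20 and Dnd1 exceeded all but 1, while 18 of the 20 exceeded Pum2 and as many exceeded Ythdc2. Of the members, 5 lay above the germ cell median and 4 below it. When the mutant values were rescaled so that the median of the 20 genes was 0, Cpeb1 kept a positive difference of 0.74, under the 2-fold rule. Dnd1 was then at 0.34, Nanos2 and Tex14 at 0.11 each and Meioc at 0.08, Nanos3 at -0.08, Dazl at -0.17, and Pum2 and Ythdc2 both at -0.38.

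**Figure D2:**
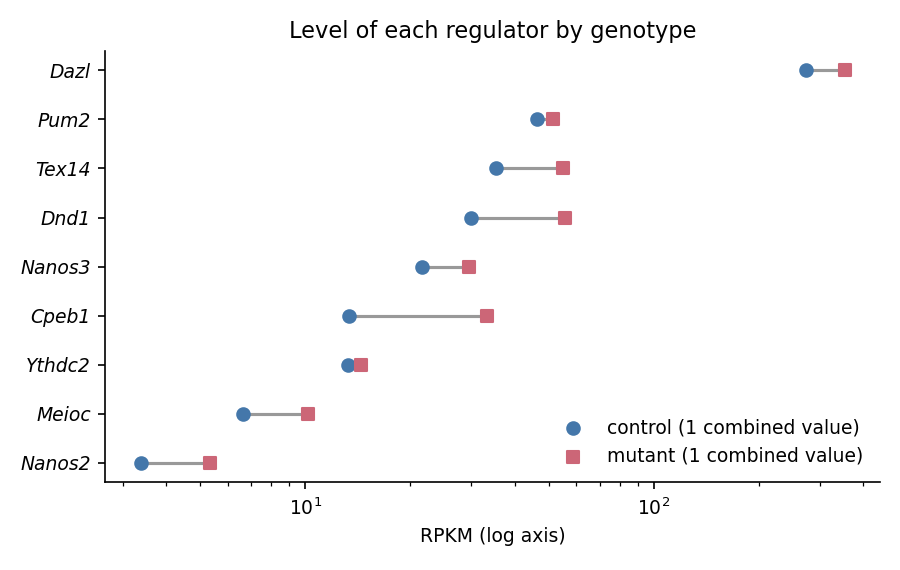
RPKM of each regulator (log axis) in control (circles) and mutant (squares), 1 combined value per genotype and no error bars because no replicate values are given. Dazl lies highest, at 274 and 353 RPKM, Nanos2 lowest at 3.37 and 5.35 RPKM, and the gap between the symbols is widest for Cpeb1; the direction is that of the deposited scaling, and rescaling to other germ cell genes turns it for Dazl, Nanos3, Pum2 and Ythdc2.

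Because RPKM is scaled to transcript length, levels were ordered across genes. The annotation that set those lengths is not known, so the order is that of the deposited values only. Dazl led in both genotypes, at 5.91 times the level of Pum2 in control and 6.86 times in mutant, and at 81.4 and 65.9 times the level of Nanos2. In control the order below Dazl was Pum2, Tex14, Dnd1, Nanos3, Cpeb1, Ythdc2, Meioc and Nanos2. In mutant Dnd1 and Tex14 stood above Pum2, and Cpeb1 above Nanos3, while the last 3 places were the same. Whether neighbours in either order differ beyond their spread over samples cannot be said from 1 value each.

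Among the repressors of the NANOS group, Nanos2 encodes the zinc-finger protein that keeps spermatogonial stem cells undifferentiated. It is a single-exon gene (chr7:18987524-18988962, GRCm38, plus strand), with 3.37 RPKM in control against 5.35 RPKM in mutant, a log2 difference of 0.54. Nanos3, which protects germ cells from death in the embryo and is expressed again in spermatogonia, lies at chr8:84173733-84176552 on the minus strand. Its control level was 21.7 RPKM and its mutant level 29.6 RPKM, a difference of 0.43. The Nanos3 level was thus 6.44 times that of Nanos2 in control and 5.53 times in mutant. A further paralog, Nanos1, was at 7.38 and 9.90 RPKM. A GENCODE antisense transcript, Gm45058, overlaps Nanos2, and no source used here says whether the counting used strand.

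Dnd1, the partner through which NANOS2 reaches its messages, had values of 30.0 RPKM (control) and 55.5 RPKM (mutant), a difference of 0.86, under the 2-fold rule. It was past the rule, at 1.03, when values were rescaled to the sum of protein-coding genes and also when a trend with transcript length and GC content was removed. The table lists Dnd1 at chr18:36760239-36766214, an interval it gives in common to the neighbouring gene Wdr55, whose end GENCODE overlaps with that of Dnd1. Wdr55 itself had nearly level values, 34.5 RPKM (control) and 35.3 RPKM (mutant), a difference of 0.03.

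Pum2, a Pumilio protein that binds messages at a UGUA-containing element and represses them, lies at chr12:8674134-8752581 on the plus strand. Its values were 46.4 and 51.4 RPKM, a difference of 0.14 that turned to -0.02 with the length and GC trend removed. Pum2 thus had nearly level values in both columns. The deadenylase that the repressors recruit was centred near 0 as well: over 14 genes for CCR4-NOT subunits and adaptors none was called, 7 lay above 0 and the median was 0.02, although it was -0.48 after the germ cell rescaling and -0.07 without the length and GC trend. Cnot1, its scaffold, was at 56.3 and 54.1 RPKM, and the catalytic subunits Cnot7 and Cnot8 at 55.5 and 61.2 RPKM and at 32.1 and 27.4 RPKM. Cnot3, in an entry it shares with a microRNA gene, was at 14.7 and 18.6 RPKM.

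Of the genes that act on translation, Dazl encodes an RNA-binding protein required for germ cell development and lies at chr17:50279394-50293599 on the minus strand. It had 274 RPKM in control, a level that 1.66% of protein-coding genes exceeded, and 353 RPKM in mutant. Its difference of 0.36 was matched or exceeded by 15.8% of protein-coding genes. Boll, the other member of the DAZ family measured, was at 25.3 and 41.0 RPKM, a difference of 0.67.

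Cpeb1 encodes the protein that binds the cytoplasmic polyadenylation element and controls poly(A) tail length in germ cells and neurons. The gene lies at chr7:81347026-81455465 on the minus strand. The control value was 13.4 RPKM and the mutant value 33.3 RPKM, a difference of 1.25. In control 50.7% of protein-coding genes stood above it, and in mutant 23.0% did. The other members of its family had nearly level values: Cpeb2 was at 4.28 and 3.99 RPKM, Cpeb3 at 2.23 in both, and Cpeb4 at 11.4 and 10.3 RPKM. Rpl7a-ps9, a pseudogene on the other strand inside the Cpeb1 locus, had values of 1.47 and 4.14 RPKM, a difference of 1.06 close to that of its host. Poly(A) binding, polyadenylation and cap binding genes, 15 in all, included none past the rule, with 7 above 0 and a median of -0.08. That median was 0.08 when scaled to the protein-coding sum, 0.07 without the trend and -0.59 after the germ cell rescaling. Pabpc1, the main cytoplasmic poly(A) binding protein, was at 151 and 119 RPKM, and Papd4, the poly(A) polymerase that works with CPEB1, at 24.6 and 22.8 RPKM.

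The promoter of Cpeb1 is printed because this was the member past the 2-fold rule, and those of Nanos2 and Nanos3 because they differ from it in CpG content while their values differed less between genotypes. These are bases upstream of the RefSeq start that lie in no annotated exon (RefSeq table, GRCm38.p6), 5′ to 3′ on the gene's strand, with CpG dinucleotides in capitals. The regions are chr7:81454759-81455008 (minus), chr7:18987274-18987399 (plus) and chr8:84176553-84176802 (minus). The RefSeq start of Cpeb1 lies inside the interval the table measures, so the stretch printed for it is within that entry, downstream of its 5′ end. The same holds for Meioc, whose RefSeq start is 102665585 in an entry that begins at 102663716. For Nanos3 the RefSeq start is the 5′ end of its entry, but GENCODE places the 5′ end of the gene further upstream, at 84185217.
Cpeb1: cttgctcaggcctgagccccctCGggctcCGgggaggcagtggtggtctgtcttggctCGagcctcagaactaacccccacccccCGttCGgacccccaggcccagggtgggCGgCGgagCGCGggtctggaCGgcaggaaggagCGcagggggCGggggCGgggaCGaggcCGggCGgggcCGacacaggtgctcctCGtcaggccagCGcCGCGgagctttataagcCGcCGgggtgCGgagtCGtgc
Nanos2: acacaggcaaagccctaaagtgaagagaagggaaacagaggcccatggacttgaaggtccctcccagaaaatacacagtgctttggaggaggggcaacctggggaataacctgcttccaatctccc
Nanos3: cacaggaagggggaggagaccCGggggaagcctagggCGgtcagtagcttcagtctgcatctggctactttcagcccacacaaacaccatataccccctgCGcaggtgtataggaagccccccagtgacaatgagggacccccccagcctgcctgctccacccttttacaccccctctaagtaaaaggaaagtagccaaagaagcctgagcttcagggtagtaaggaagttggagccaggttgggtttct
In the 250 bases before the start, Cpeb1 held 25 CpG, Nanos2 0 and Nanos3 3, beside a median of 15 over 9874 promoters of protein-coding genes compared. Unlike the printed stretches, these counts and the motif searches below took all 250 bases, with any that lie in annotated exons. The table held promoters of 7 members. The observed to expected CpG ratio was 0.742 for Cpeb1, 0.710 for Dazl, 0.727 for Tex14, 0.797 for Meioc and 0.982 for Pum2, beside a median of 0.718. It was 0 for Nanos2 and 0.151 for Nanos3, values that 98.9% and 94.8% of promoters exceeded. The members with CpG-poor promoters and those with CpG-rich ones all had higher mutant values as deposited, with the exceptions after rescaling named above. Pum2 and Dazl had differences of 0.14 and 0.36, under those of Nanos2 at 0.54 and Nanos3 at 0.43. Cpeb1, Tex14 and Meioc lay above both, at 1.25, 0.63 and 0.56. A relation between CpG content and difference was not tested.

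Retinoic acid receptors bind DNA at pairs of half-sites. The half-site AGGTCA, searched on both strands, occurred in none of the 7 promoters, beside 10.5% of all 9874, and the E-box CACGTG likewise in none, beside 8.55%. The E2F-type letters TCCCGC, a sequence found in promoters of many germline genes, occurred in 2 of 7, Meioc and Tex14, beside 29.9% of all. The Tex14 match begins 111 bases before the start, where the exon-free run is 110 bases, so it reaches into an annotated exon. A match describes letters only. Only exact letters in 250 bases were searched, so the lack of a match does not show that a binding site is absent. The start of Tex14 lies head to head with that of Rad51c, a recombination gene, which was at 15.2 and 18.2 RPKM, a difference of 0.25.

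The elements that Pumilio proteins and CPEB1 bind were searched in the 3′ UTRs of the members' own messages. In the longest coding transcript of each gene (GENCODE M21), the Pumilio element TGTANATA was found in 3 of 9 3′ UTRs, those of Pum2, Cpeb1 and Ythdc2, with 2, 1 and 4 matches, beside 25.8% of 12508 protein-coding genes. The cytoplasmic polyadenylation element, searched as TTTTAT or TTTTAAT, was found in 7 of 9, beside 60.8% of those genes. Nanos3 and Tex14 held neither element. Both were searched on the sense strand only, and 3′ UTR lengths differ, with a median of 1315 nt over the members and 1102 nt over all, so the window of fixed length below is the like comparison. The lines show matches in Pum2 (chr12:8750155-8750182 and chr12:8750408-8750435), in Cpeb1 (chr7:81347544-81347571 and chr7:81347258-81347284), in Nanos2 (chr7:18988831-18988857 and chr7:18988867-18988892) and in Dazl (chr17:50279754-50279779). Pum2 is shown as a Pumilio message with its own element, Cpeb1 as the member past the 2-fold rule, and Nanos2 and Dazl as the members with the lowest and highest level; of the polyadenylation elements in Cpeb1 and Dazl the one nearest the 3′ end is given. The element is in capitals, with up to 10 bases either side. Dnd1 has such elements 29 and 121 nt before its 3′ end, which are not printed.
Pum2 Pumilio element, first: tttatagagaTGTATATAgaattatagt
Pum2 Pumilio element, second: tgtacagaatTGTATATActtataattg
Cpeb1 Pumilio element: gagcagctgcTGTATATAgttttaaatg
Cpeb1 polyadenylation element: tgacttttctTTTTAATttaacgatta
Nanos2 polyadenylation element, first: actgcttaggTTTTAATtttaggggca
Nanos2 polyadenylation element, second: gccagttgggTTTTATgctatctagg
Dazl polyadenylation element: gtcaaaattcTTTTATgtcaccaagt
In the last 150 nt of the message the polyadenylation element occurred in 2 of 9 members, Nanos2 and Dnd1, beside 24.8% of 11598 protein-coding genes. The Pumilio element occurred there in 1 of 9, Ythdc2, beside 6.70%. Genes with a Pumilio element in that window had a median difference of 0.03 and those without one -0.07. For the polyadenylation element the medians were -0.03 and -0.07. Both contrasts are descriptions across genes, which are not independent, and were not tested.

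Ythdc2, an RNA helicase with a YTH domain that reads N6-methyladenosine, lies at chr18:44827746-44889724 on the plus strand. Its control value was 13.3 RPKM and its mutant value 14.5 RPKM, a difference of 0.11, the smallest of the 9, which turned to -0.10 with the length and GC trend removed. A second entry under the same symbol and interval was at 1.05 and 1.63 RPKM and was not used. Its partner Meioc (chr11:102663716-102682237, plus strand) was at 6.62 and 10.2 RPKM, a difference of 0.56. The level of Ythdc2 was thus 2.02 times that of Meioc in control and 1.42 times in mutant. Rbm46, which works with this pair, was at 26.6 and 41.8 RPKM, a difference of 0.63 that was like that of Meioc and unlike that of Ythdc2.

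Among other readers of this methylation, Ythdf1, Ythdf2 and Ythdf3 had differences of 0.21, -0.03 and 0.25, and Ythdc1, in an entry shared with other genes, was at 42.5 and 62.1 RPKM, a difference of 0.54. None of 8 writer and eraser genes was called, 7 lay above 0 and the median was 0.12, or -0.40 after setting the germ cell genes to 0. Mettl3, the catalytic subunit, was at 56.1 and 63.6 RPKM, and the writer genes Mettl14 and Zc3h13 had differences of 0.39 and 0.40. Over 11 paralogs and partners of the members 8 lay above 0, none was called and the median was 0.08, or -0.34 under that rescaling.

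Tex14 lies at chr11:87405065-87555823 on the plus strand, with 35.2 RPKM in control against 54.9 RPKM in mutant, a difference of 0.63. Genes nested in that interval included Gm11489, a pseudogene, at 7.20 and 16.6 RPKM, and the small nuclear RNA gene Gm23137 at 38.2 and 35.8 RPKM. Of 12 genes for the intercellular bridge and midbody, 4 lay above 0, none was called and the median was -0.12. That median was 0.04 when scaled to the protein-coding sum and -0.64 after the germ cell rescaling. Cep55, to which TEX14 binds to block abscission, was at 28.7 and 25.5 RPKM, the midbody kinesin gene Kif23 at 25.2 and 22.1 RPKM, and the abscission gene Chmp4b at 89.4 and 62.6 RPKM. Rbm44, another bridge protein, was at 37.1 and 39.0 RPKM.

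**Figure D3:**
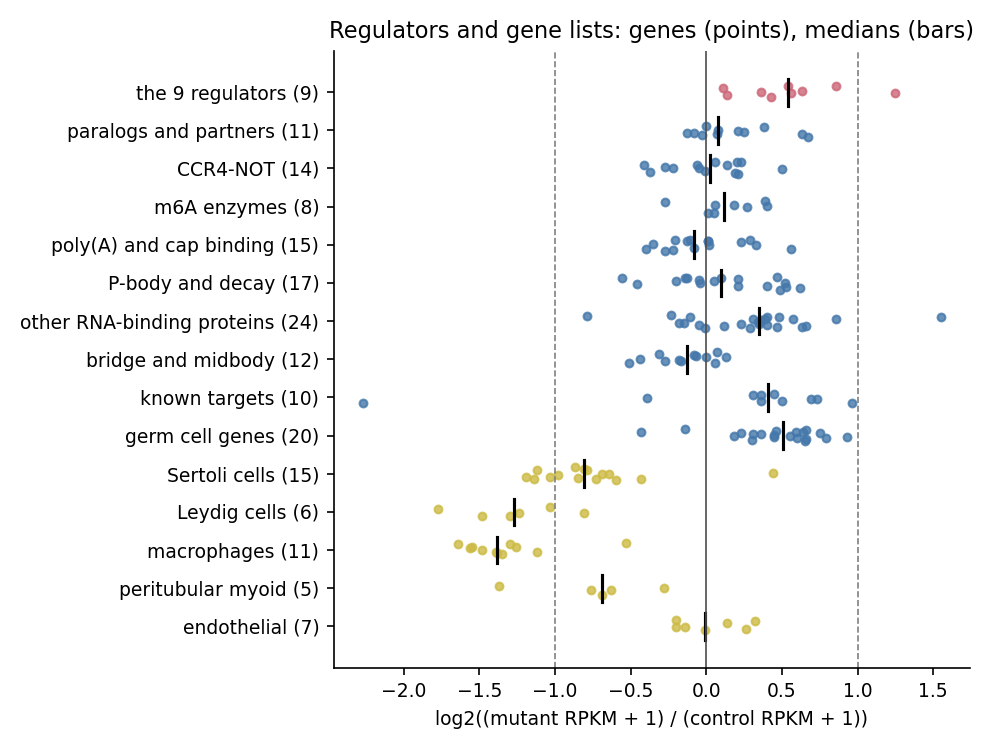
Log2 difference, mutant over control (horizontal axis), of each gene (points) in the regulators, in 9 related gene lists and in markers of 5 other testicular cell types, with the number of genes compared in brackets and the median as a bar; dashed lines mark the 2-fold rule. The regulators (median 0.54) lie with the germ cell genes (0.50), while the CCR4-NOT and bridge lists lie near 0 and macrophage, Leydig and Sertoli markers lie below it. After rescaling to the germ cell genes 4 of the 9 regulators lie below 0, and the CCR4-NOT and bridge medians are -0.48 and -0.64.

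Messages known to be bound or regulated by these proteins lay mostly above 0, in 8 of 10 cases, with a median of 0.40 that turned to -0.12 after setting the germ cell genes to 0. So did 18 of the 20 other germ cell genes, beside 44.4% of protein-coding genes, so the count is not particular to these messages. The list of these messages holds Dazl itself, a NANOS2 target, and shares Ddx4 and Tex19.1 with the germ cell genes. Sycp3 and Sycp1, of the synaptonemal complex, had 41.9 and 59.5 RPKM and 42.1 and 83.0 RPKM. Taf7l was at 124 and 207 RPKM, Sohlh2 at 30.8 and 50.5 RPKM, Tex11 at 36.7 and 50.4 RPKM, Tex19.1 at 164 and 203 RPKM and Ddx4 at 88.6 and 114 RPKM. Of these 10, Stra8, which NANOS2 represses and retinoic acid induces, was the only one called, lower at 45.2 and 8.60 RPKM; a further one was called, higher, after quantile normalization and after rescaling to the protein-coding sum. Ccna2, the cyclin A2 message that MEIOC and YTHDC2 act against, was at 104 and 79.2 RPKM, a difference of -0.39.

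Among 24 other RNA-binding proteins of germ and stem cells, 17 lay above 0 and the median was 0.35, which became -0.17 when the germ cell genes were set to 0. Igf2bp2, which stabilizes messages, was the 1 called, higher, with 9.57 RPKM in control against 29.9 RPKM in mutant, a difference of 1.55; rescaling to the protein-coding sum brought a further one past the rule, and rescaling to the germ cell genes brought 1 past it in the lower direction. Igf2bp1 was left out of that count because its entry also carries the microRNA gene Mir3063, and this entry had 47.8 RPKM (control) and 321 RPKM (mutant), a ratio of 6.70. Igf2bp3 was at 16.7 and 22.2 RPKM. The Musashi genes, translation regulators of stem cells, went opposite ways without reaching the rule, with Msi1 at 36.0 and 20.4 RPKM and Msi2 at 43.4 and 79.3 RPKM. P-body and decay factors, 17 in all, had a median of 0.10, or -0.38 under that rescaling, with 10 above 0 and none called.

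**Figure D4:**
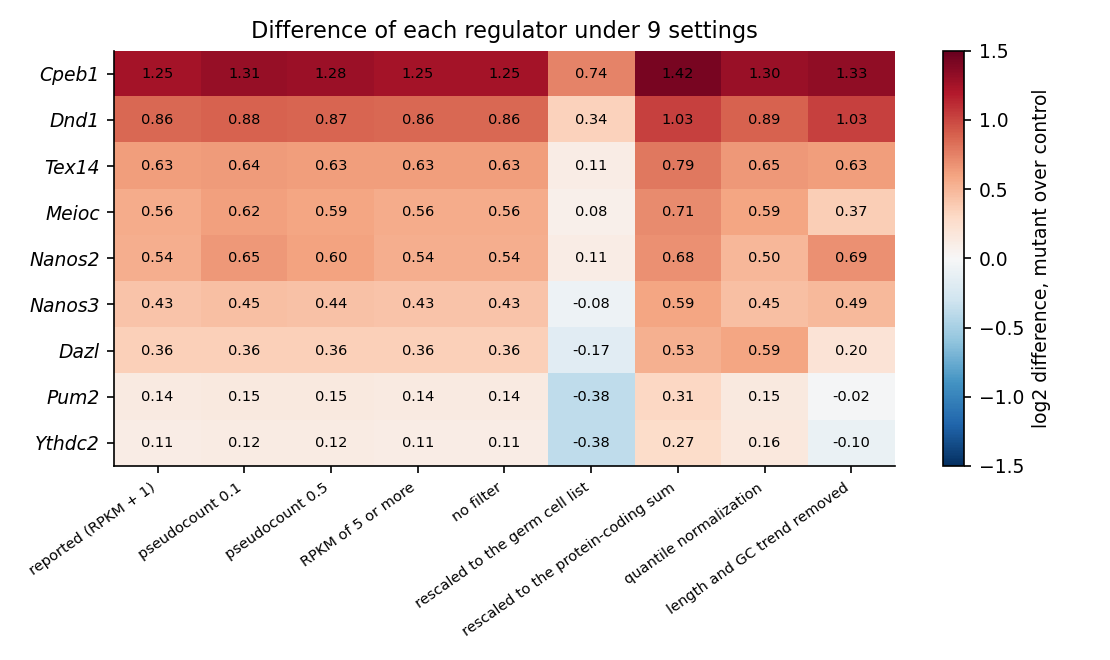
Log2 difference, mutant over control, of each regulator (rows) under the reported setting and 8 alternatives (columns), with the value printed in each cell and red for higher, blue for lower in mutant. Cpeb1 is between 0.74 and 1.42 throughout, while Dazl, Nanos3, Pum2 and Ythdc2 are below 0 when the germ cell list is set to 0, and Pum2 and Ythdc2 also with the length and GC trend removed.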

How the data were processed

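RNA of 4 libraries was analysed, 2 per genotype. The deposited values are RPKM, per the file headers, with 1 column for replicates 1 and 2 of each genotype together; how they were combined, the counting program, the annotation and the use of strand are not given in any source read here. The submitters' processing notes name TopHat2 2.0.11 and GRCm38. From these values log2((mutant + 1) / (control + 1)) was computed for genes that reached 1 RPKM in at least 1 genotype. Of the entries past this minimum, 774 carrying several symbols and 31 repeats of a symbol were left out, which left 16473, of which 15932 matched GENCODE M21 by current or older symbol. Table starts are 0-based and were raised by 1.

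Depth was read from genes with 1 transcript of at least 1000 nt: with a tolerance of 0.1 read, 90.5% of 884 low control values and 95.3% of 900 low mutant values were whole reads. The planned limma fit needs a column per library and was not run. The named genes were the 9 members, list genes past 2-fold, all known targets, direct paralogs and partners, and otherwise at most 5 per list. The members, lists and rules were chosen with earlier results of these data known. Scripts ran in Python 3.11.15 with numpy 2.4.6, pandas 2.3.3 and scipy 1.17.1. Of their steps, the 2-fold rule and the reading of depth were tried on simulated data, and the others were not. Alternatives were pseudocounts of 0.1 and 0.5, an RPKM minimum of 5 or none, 3 scalings, and removal of a quadratic trend with transcript length and GC content.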

Additional observations from a re-analysis of the deposited data

How the results depend on the processing

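No paired analysis was possible because the table holds 1 combined value per genotype, and for the same reason no replicate could be left out. Under the 8 alternatives, Nanos2, Meioc and Tex14 kept their direction and side of the 2-fold rule. The RPKM minimum leaves a member's value as it is, and a pseudocount cannot change its sign. Only the scalings and the trend removal could therefore turn a direction. After rescaling to the germ cell list Nanos2 and Tex14 fell to 0.11 each and Meioc to 0.08. Cpeb1 ranged from 0.74 to 1.42 and was under the rule only after rescaling to the germ cell list (mutant values times 0.692). That rescaling also turned Dazl to -0.17, Nanos3 to -0.08, and Pum2 and Ythdc2 to -0.38 each, left 0 members past the rule, moved the median of all genes to -0.44, and gave 424 genes called higher and 2362 lower (15.2% of calls higher, against 50.3% as reported). It turned the medians of the paralogs to -0.34, CCR4-NOT to -0.48, m6A enzymes to -0.40, P-body factors to -0.38, other RNA-binding proteins to -0.17 and known targets to -0.12, and brought 1 gene each of the P-body, other RNA-binding and bridge lists past the rule, lower. The medians of the poly(A) and cap binding list and of the bridge list, already below 0, fell to -0.59 and -0.64. Rescaling to the protein-coding sum (times 1.12) brought Dnd1 to 1.03 and so 2 members past the rule, with 470 genes lower and 68.2% of calls higher. It turned the medians of the poly(A) and cap binding list to 0.08, of the bridge list to 0.04 and of the endothelial list to 0.11, and put 1 of the 20 germ cell genes past the rule, as did removing the trend. With the length and GC trend removed Dnd1 was at 1.03, Pum2 at -0.02 and Ythdc2 at -0.10, 2 members were past the rule, and the CCR4-NOT and poly(A) medians were -0.07 and 0.07. A pseudocount of 0.1 gave 1417 genes higher and 1107 lower. The cause of these changes was not tested.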
